A study of Mus musculus with 15 samples.

Results

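Immune checkpoint genes encode the receptors and ligands that restrain or sustain T cells after they meet antigen. Of 10 listed genes, matched to the table by symbol, 9 had a row among the 17271 genes of the table: the ligands Cd274, Pdcd1lg2 and Cd80, the inhibitory receptors Pdcd1, Lag3, Tigit and Havcr2, and the costimulatory receptors Icos and Tnfrsf9. Ctla4, the inhibitory receptor that competes for Cd80, was not analysed here. The 15 samples were mouse mammary tumours grown in vivo, all labelled p53-NULL and of strain Balbc (BALB/c), so loss of p53 was common to every group. The 4 tumour models were 2151R with 4 samples, T11 with 1, 2225L with 2 and 2208L with 8. Within 2208L, the titles named 4 samples PBS, 3 samples 3day nt and 1 sample ROSEN, and the 2225L samples were titled T-Vivo (replicate 1) and ROSEN (replicate 2). In 2151R, replicates 3 and 4 were titled NT2 and NT, and replicates 1 and 2 carried codes that, like NT, nt and ROSEN, the labels do not explain. The labels gave no further treatment, age or sampled animal, and their protocols described libraries made from poly(A) RNA. Nothing said whether samples came from separate animals, so p-values measure the spread between these samples, which may be technical.

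In the PD-1 pathway, Cd274 (PD-L1) and Pdcd1lg2 (PD-L2) on tumour cells, macrophages and dendritic cells bind Pdcd1 (PD-1) on T cells and dampen signalling from the T cell receptor. Interferon gamma, acting through Jak and Stat proteins and Irf1, is a known inducer of Cd274. Lag3 binds MHC class II, Tigit binds Pvr on neighbouring cells, and Havcr2 (TIM-3) is found on exhausted T cells and also on macrophages and dendritic cells. Cd80 on antigen-presenting cells binds Cd28 as a costimulator. Icos is a costimulatory receptor of helper and regulatory T cells, and Tnfrsf9 (4-1BB) sustains activated T cells.

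Cd274 and Pdcd1lg2 lie side by side on the plus strand of mouse chromosome 19 (GRCm38, GENCODE M21), Cd274 at chr19:29367455-29388095 and Pdcd1lg2 at chr19:29410919-29471161, 22823 bases apart. Their promoters are shown because the neighbours differed in pattern across the tumours. Each is the 250 bases before the RefSeq start in GRCm38.p6, plus strand, chr19:29367188-29367437 for Cd274 and chr19:29410669-29410918 for Pdcd1lg2. Capitals mark a match to GAAANNGAA, an interferon response element, which was searched on both strands.
Cd274: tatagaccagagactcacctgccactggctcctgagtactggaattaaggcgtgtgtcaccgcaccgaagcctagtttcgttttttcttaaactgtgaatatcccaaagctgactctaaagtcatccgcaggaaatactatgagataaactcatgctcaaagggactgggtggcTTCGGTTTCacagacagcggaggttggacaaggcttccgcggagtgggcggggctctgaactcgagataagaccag
Pdcd1lg2: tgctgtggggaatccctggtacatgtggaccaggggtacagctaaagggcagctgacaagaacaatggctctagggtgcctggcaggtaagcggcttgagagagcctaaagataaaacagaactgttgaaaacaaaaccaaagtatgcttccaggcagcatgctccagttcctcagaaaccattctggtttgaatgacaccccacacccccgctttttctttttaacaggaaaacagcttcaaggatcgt
The match in Cd274 was on the minus strand, 76 bases before the start. The Cd274 window also covers the start of Plgrkt, a minus-strand gene at chr19:29348599-29367390. Neither GAAANNGAA nor the STAT element TTCNNNGAA occurred in the Pdcd1lg2 window. The elements occurred in 7.13% and 7.02% of 32851 mouse promoters of this length, and a match is a description of letters only. The other genes, all protein-coding, lie apart from this pair. Cd80 is at chr16:38455561-38496335 and Tigit at chr16:43648867-43664146, Icos at chr1:60977927-61000320 and Pdcd1 at chr1:94038305-94052553, Havcr2 at chr11:46454935-46481255 and Tnfrsf9 at chr4:150914562-150946102. RefSeq promoters were found for 7 of the 9 genes. Among the others a STAT element occurred in the Tnfrsf9 window chr4:150927749-150927998, but not in that gene's other window, chr4:150919905-150920154.

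Values were log2 expression centred on each gene, and which samples the centring used was not stated. The median over these samples was 0 for 1124 of the 17271 genes, so 0 need not be a gene's middle sample. Values rank samples within a gene, not genes against each other. Trp53, the gene named in the genotype, averaged 0.19 over the 4 samples of 2151R (SD 0.081) and -0.091 over the 8 of 2208L (SD 0.18), and was not called in any comparison. The 2225L samples were lowest for the mean of 6 pan-leukocyte markers, at -2.12 and -0.84, against -0.72 to 0.36 in 2208L and -0.03 to 0.23 in 2151R. Macrophage markers averaged -2.05 and -1.11 in 2225L, -0.76 to 0.04 in 2208L and 0.60 to 0.96 in 2151R. Skeletal muscle markers stood at 7.99 in 2151R replicate 3 and reached 11.01 in 3day nt, where replicates 6 and 8 of 2208L were high. In bulk tumour RNA, fewer immune cells and less RNA per cell cannot be told apart. Library numbers of 2151R, PBS and 3day nt fell in separate ranges, so library series and group cannot be told apart.

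**Figure D1:**
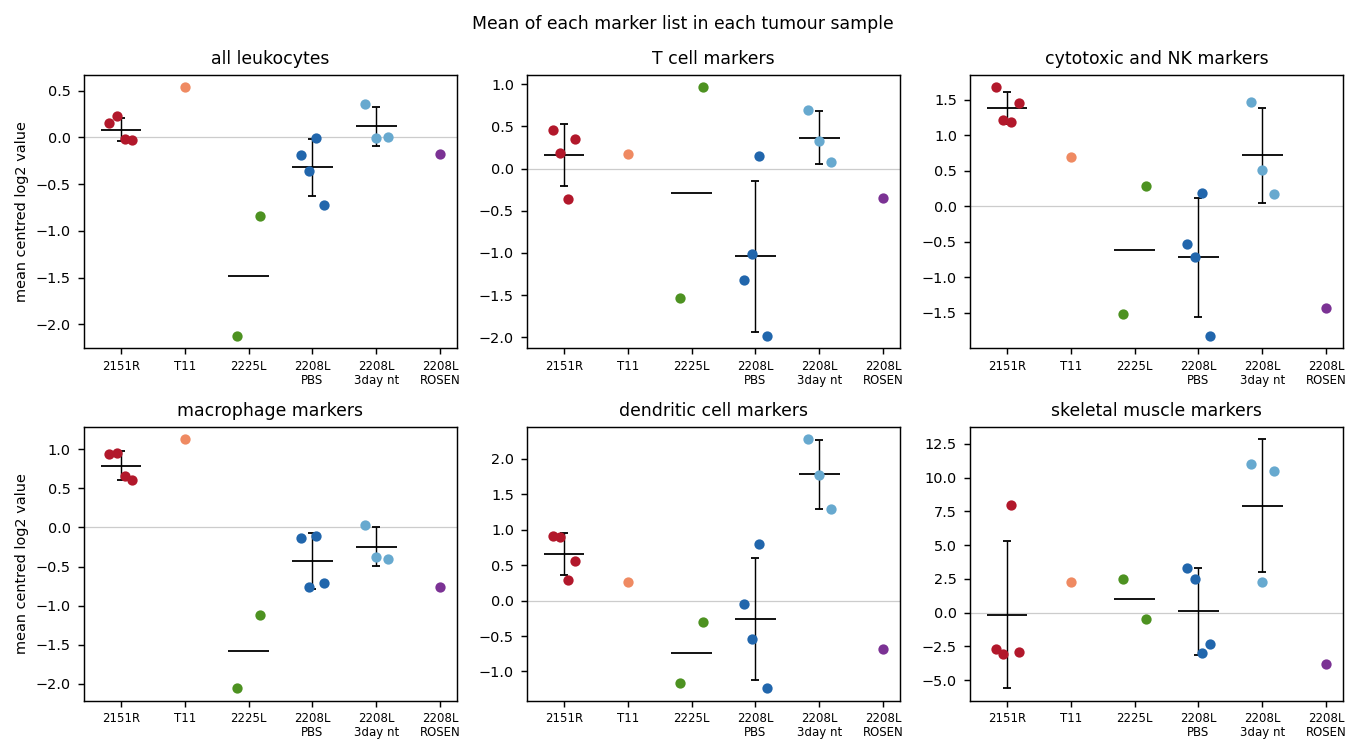
Mean centred log2 expression of each cell type's markers (vertical axis) by group (horizontal axis), one point per sample, with a line at the mean and SD bars for groups of 3 or more. The 2225L samples sit lowest for macrophage and pan-leukocyte markers, and dendritic cell markers are higher in 3day nt than in PBS.

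Among the ligands, Cd274 was uniformly low in 2225L and Pdcd1lg2 separated the 2208L subsets. Cd274 stood at -2.82 and -2.53 in 2225L. It stood at 0.04, 0.42, -0.54 and 0.24 in 2151R replicates 1 to 4, at 0.09 in T11, and between -0.21 and 1.77 in 2208L with a median of 0.58. Both 2225L samples lay below every other sample, and the other models overlapped. Cd274 was lower in 2225L than in 2208L by a difference of -3.25 (SE 0.44, adjusted p = 0.000111, limma with Benjamini-Hochberg adjustment over all genes). Against 2151R the difference was -2.71 (SE 0.48, adjusted p = 0.000457, limma). Low leukocyte and macrophage markers moved with these differences. Subtracting a marker mean shifts every gene of a sample by the same amount, so it also moves calls over the whole table. After each sample's pan-leukocyte mean was subtracted, the Cd274 difference from 2208L was -1.91 and still called, while that from 2151R was -1.15 and not called. T cell (-2.27) and macrophage (-0.34) subtraction also ended the call against 2151R. Over all genes 8398 were called against 2151R, and 2569 with T cell, 13862 with macrophage and 11135 with pan-leukocyte subtraction. T cell marker means were far apart in the 2225L samples, at -1.54 and 0.97. With dendritic markers subtracted, an alternative added after seeing the data, neither Cd274 difference was called. They were -2.06 (adjusted p = 0.171, limma) from 2208L and -1.32 (adjusted p = 0.374) from 2151R. Over all genes 1499 and 3608 were then called, beside 5687 and 8398 without.

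Within 2208L, Cd274 stood at 1.29, 0.56, 0.61 and 1.77 in PBS and 0.59, 0.00 and -0.21 in 3day nt, so the subsets overlapped. Their difference was 0.93 (SE 0.35, adjusted p = 0.0831, limma) and was not called. It was called with T cell (2.33, adjusted p = 0.00227), pan-leukocyte (1.36, adjusted p = 0.0371) or dendritic (2.96, adjusted p = 3.13e-05) markers subtracted. With these subtractions 8195, 6648 and 14684 of the 17271 genes were called, beside 5864 without. Over all samples 2151R and 2208L differed by -0.54 (SE 0.34, adjusted p = 0.204), not called. The difference was called against PBS alone (-1.02, adjusted p = 0.0238) and with macrophage markers subtracted (-1.73, adjusted p = 0.000861).

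Pdcd1lg2 had the widest spread of levels. It was 1.69, 1.85, 2.75 and 2.07 in 2151R, -1.88 in T11, and -2.52 and -1.94 in 2225L. In 2208L it was -1.20 in ROSEN, -0.94, -0.07, 0.38 and 0.72 in PBS, and 4.88, 3.95 and 3.58 in 3day nt. The order from highest to lowest was 3day nt, 2151R, PBS, ROSEN, T11 and 2225L, with no overlap between neighbours, although ROSEN and T11 were single samples.

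PBS was lower than 3day nt by -4.11 (SE 0.47, adjusted p = 0.00348, limma). The difference stayed called without any one sample, from -4.39 to -3.74. Without replicates 6 and 8, the muscle-high pair, it was -3.93 with an adjusted p of 0.0887 and 1 3day nt sample left. Dendritic cell markers moved with it, averaging -1.23 to 0.80 in PBS and 1.29 to 2.28 in 3day nt. With their mean subtracted the difference was -2.07 (adjusted p = 0.00239, limma). Dendritic markers themselves were lower in PBS for 6 of 9, where 16.5% of all genes were lower, led by Cd209a at -5.01 and Siglech, a plasmacytoid marker, at -3.39.

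The subset also set the sign between models for Pdcd1lg2. Over all 2208L samples, 2151R was higher by 0.68 (SE 1.07, adjusted p = 0.626, limma) and was not called. Against PBS samples alone the difference was 2.07 (adjusted p = 0.0017), and against 3day nt alone it was -2.04 (adjusted p = 0.00282). Relative to 2208L, 2225L differed by -3.64 (SE 1.39, adjusted p = 0.0602), not called, although both its samples lay below every 2208L sample. It was called against PBS alone (-2.25, adjusted p = 0.00419) and against 3day nt alone (-6.37, adjusted p = 0.000109). The same held without 2208L replicate 1 (-4.02) or 2 (-3.98) and with T cell markers subtracted (-3.79). Relative to 2151R the difference was -4.32 (SE 1.52, adjusted p = 0.0313, limma). That call was lost without either 2225L sample or without 2151R replicate 3 or 4, at -4.61 to -4.03. It was also lost with a covariate marking the samples titled ROSEN (-3.48), and with macrophage (-1.95) or pan-leukocyte (-2.76) markers subtracted.

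Cd80 stood at 0.91, 0.99, 0.25 and 0.53 in 2151R, 0.62 in T11, and -1.84 and -1.77 in 2225L. In 2208L it was -2.03 in ROSEN, -0.15, -0.46, -0.39 and -0.47 in PBS, and 0.78, 0.00 and 0.10 in 3day nt. ROSEN lay with the 2225L samples and apart from the other 2208L samples. Cd80 was lower in 2225L than in 2151R by -2.47 (SE 0.54, adjusted p = 0.00218, limma). It was also lower than in 2208L, by -1.48 (SE 0.49, adjusted p = 0.0353), and higher in 2151R than in 2208L, by 0.998 (SE 0.38, adjusted p = 0.0453). Both calls against 2208L were fragile. That of 2225L was lost without either of its samples (-1.44, -1.51) or without 2208L replicate 2, 7 or 8 (-1.45 to -1.41). It was also lost with quantile normalization (-1.05) or a covariate marking the samples titled ROSEN (-1.02). That of 2151R was lost without its replicate 1, 2 or 4 or 2208L replicate 2, 3, 4, 5 or 7, at 0.89 to 1.04, and was 0.38 against 3day nt alone. The 2151R call was also lost with every marker mean subtracted, at 0.41 (T cell), 0.78 (pan-leukocyte), 0.79 (dendritic) and -0.19 (macrophage). Both 2225L calls were lost with any of the 4 marker means subtracted, the macrophage values being -0.10 against 2151R and -0.29 against 2208L. T cell and dendritic subtraction lowered the whole-table count in each comparison between models. For 2225L against 2151R 2569 and 3608 genes stayed called, beside 8398 without, and against 2208L 1005 and 1499, beside 5687. Macrophage subtraction raised these counts to 13862 and 10302. Between PBS and 3day nt the values did not overlap, and the difference of -0.66 (SE 0.21, adjusted p = 0.0509) was not called. It was called with quantile normalization (-0.67, adjusted p = 0.0436), with a variance trend (adjusted p = 0.0483) and without replicate 7 (-0.81), and was 1.38 (adjusted p = 0.0369) with dendritic markers subtracted. With that subtraction 14684 of the 17271 genes were called.

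**Figure D2:**
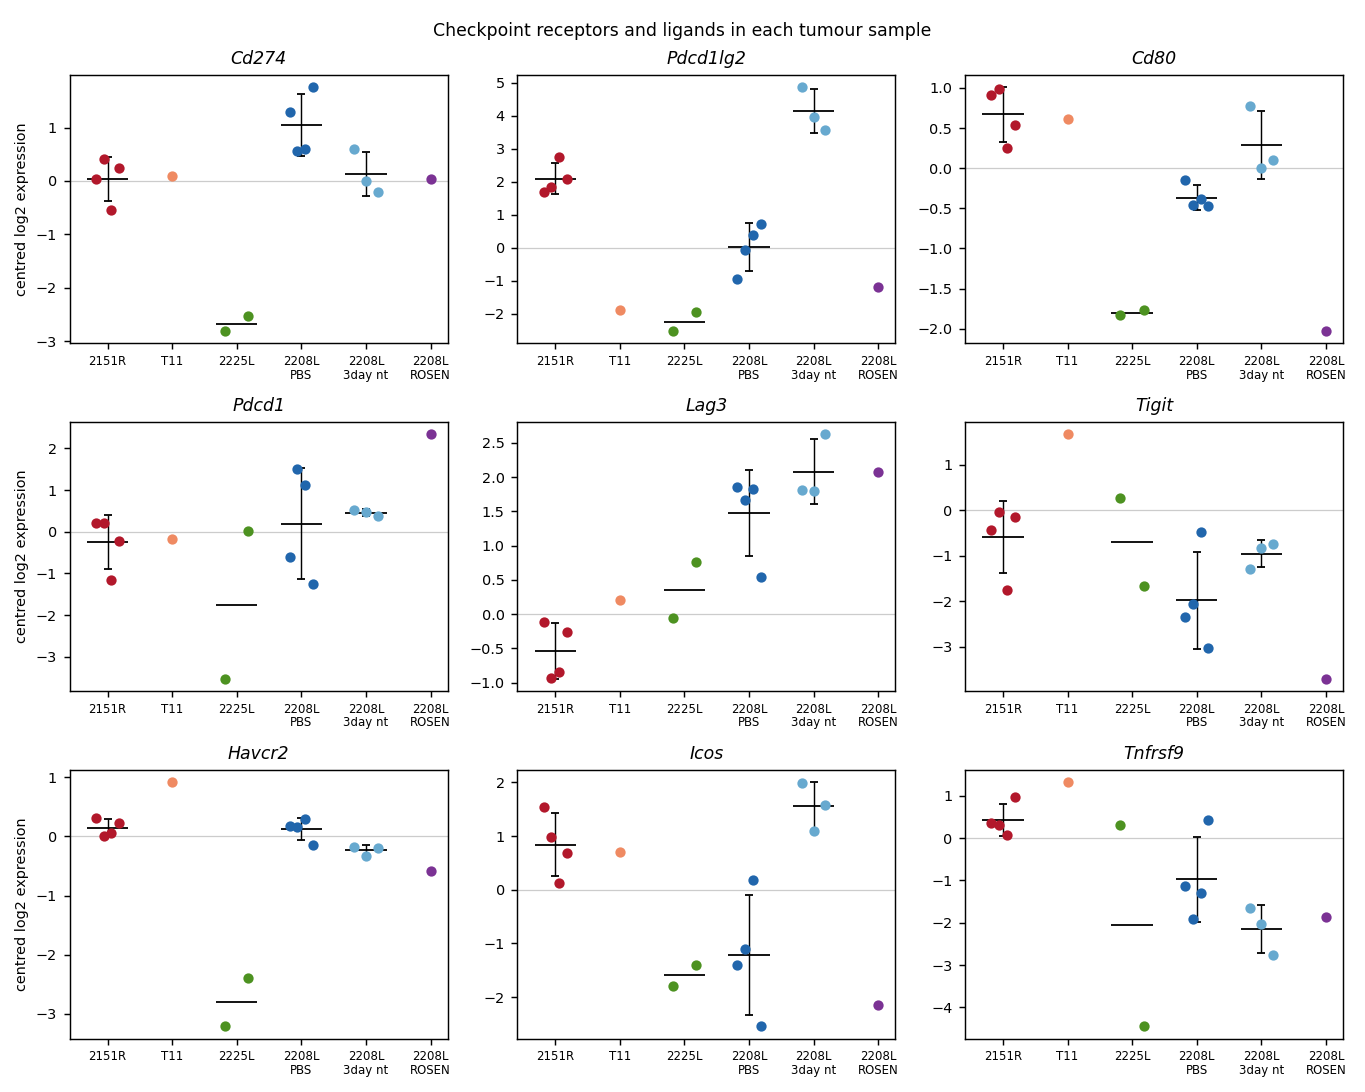
Centred log2 expression (vertical axis) of the 9 checkpoint genes by group (horizontal axis), one point per sample, with a line at the mean and SD bars for groups of 3 or more. Pdcd1lg2 is highest in 3day nt at 3.58 to 4.88, Lag3 is lowest in 2151R, and Cd274 and Havcr2 are lowest in 2225L.

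Among the inhibitory receptors, Lag3 marked 2208L. It stood at -0.11, -0.93, -0.84 and -0.25 in 2151R, 0.21 in T11, and -0.05 and 0.76 in 2225L. In 2208L it ran from 0.54 to 2.63 with a median of 1.82 (PBS 1.86, 1.67, 1.83 and 0.54, 3day nt 1.81, 1.80 and 2.63, ROSEN 2.08). Every 2151R sample lay below every 2208L sample, and 2208L replicate 5 alone was below 2225L replicate 2. Lag3 was lower in 2151R than in 2208L by -2.31 (SE 0.32, adjusted p = 4.61e-05, limma). It stayed called in all 29 alternatives run for it, -2.52 with dendritic markers and -2.90 with T cell markers subtracted. Of 11 T cell markers measured, 2 were called higher in 2151R (Cd4 1.30, Cd247 0.98) and none lower. Over all genes 26.1% were higher and 22.7% lower. Against 2208L, 2225L was lower by -1.42 (SE 0.41, adjusted p = 0.0166, limma), a call lost without 2225L replicate 1 (-1.02), against PBS alone (-1.12), and with any of the 4 marker means subtracted (-1.57 to -0.081). Over all genes 5687 were called between 2225L and 2208L. With the subtractions 1005 (T cell), 10302 (macrophage), 10903 (pan-leukocyte) and 1499 (dendritic) were called. Lag3 differed by 0.89 between 2225L and 2151R (SE 0.45, adjusted p = 0.118, limma), without overlap and not called. It was called with macrophage (3.26, adjusted p = 1.20e-05) or pan-leukocyte (2.45, adjusted p = 7.27e-05) markers subtracted, and was 0.48 without 2225L replicate 2. With those subtractions 13862 and 11135 of the 17271 genes were called, beside 8398 without. The PBS and 3day nt difference, -0.61 (SE 0.39, adjusted p = 0.255), was not called. With dendritic markers subtracted it was 1.43 (adjusted p = 0.0303), where 14684 of the 17271 genes were called.

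Lag3 lies at chr6:124904361-124911705 on the minus strand beside Cd4, which encodes the MHC class II coreceptor of helper T cells. None of its nearest measured protein-coding genes, chosen after the values were seen, was called lower in 2151R than in 2208L. Of 7 measured, 4 were called, all of them higher: Gpr162 at 0.78, Cd4 at 1.30, Ptms at 0.44 and Cops7a at 0.50. Over all genes 48.8% were called there, 26.1% higher and 22.7% lower. P3h3 (0.42), Mlf2 (-0.18) and Pianp (0.06) were not called.

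Havcr2 stood at 0.32, 0.00, 0.06 and 0.22 in 2151R, 0.92 in T11, -3.21 and -2.39 in 2225L, and -0.58 to 0.30 in 2208L with a median of -0.16. T11 was above and 2225L below every other sample, while 2151R and 2208L overlapped. Havcr2 was lower in 2225L than in 2208L by -2.70 (SE 0.25, adjusted p = 4.70e-06) and than in 2151R by -2.95 (SE 0.27, adjusted p = 1.60e-06, limma). Macrophage markers moved the same way, with 7 of 11 lower in 2225L than in 2208L (17.3% of all genes) and 11 of 11 lower than in 2151R (25.8% of all genes), led by Itgam (-2.24, -3.70) and the scavenger receptor Msr1 (-1.75, -3.72). With macrophage markers subtracted the difference was -1.52 from 2208L, still called, and -0.58 from 2151R, not called. With dendritic markers subtracted it was -1.51 and -1.56, neither called. With that subtraction 1499 and 3608 of the 17271 genes were called, beside 5687 and 8398 without. The difference of 0.25 between 2151R and 2208L (SE 0.19, adjusted p = 0.305) and that of 0.36 between PBS and 3day nt (SE 0.13, adjusted p = 0.0813) were not called. The latter groups did not overlap, and the difference was called on median-centred samples (0.42, adjusted p = 0.00648), with quantile normalization (0.48) and without replicate 5 (0.45). It was also called with T cell (1.76), pan-leukocyte (0.79) or dendritic (2.39) markers subtracted. With these subtractions 8195, 6648 and 14684 of the 17271 genes were called. With macrophage markers subtracted, 2151R was lower than 2208L by -0.94 (adjusted p = 0.00147).

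Pdcd1 varied within groups as much as between them. It stood at 0.22, 0.21, -1.17 and -0.23 in 2151R, -0.17 in T11, and -3.53 and 0.02 in 2225L. In 2208L it was 2.34 in ROSEN, -0.60, 1.51, 1.12 and -1.26 in PBS, and 0.53, 0.46 and 0.37 in 3day nt. Highest of all was 2208L ROSEN and lowest 2225L replicate 1, and the models overlapped. No Pdcd1 difference was called, at -0.80 (SE 0.70, adjusted p = 0.362) for 2151R against 2208L, -2.31 (SE 0.90, adjusted p = 0.0651) for 2225L against 2208L, -1.51 (SE 0.98, adjusted p = 0.223) for 2225L against 2151R and -0.26 (SE 0.68, adjusted p = 0.784) for PBS against 3day nt. The 2225L values depended on the sample kept. A covariate for samples titled ROSEN marked replicate 2 alone within 2225L. With it, Pdcd1 in 2225L was called lower than in 2208L (-3.28, adjusted p = 0.00329, limma) and in 2151R (-2.80, adjusted p = 0.0115). Without replicate 2, 2225L was lower than 2208L by -4.09 and than 2151R by -3.29, both called, and without replicate 1 the differences were -0.54 and 0.27. Without 2208L replicate 5 the difference from 2208L was called at -2.57. Marker subtraction gave called values of -1.99 for 2151R against 2208L (macrophage) and 1.77 for PBS against 3day nt (dendritic). With the latter, 14684 of the 17271 genes were called.

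Tigit was highest in T11, at 1.66, and stood at -0.43, -0.05, -1.76 and -0.14 in 2151R and 0.26 and -1.67 in 2225L. In 2208L it was -3.70 in ROSEN, -2.36, -2.07, -0.49 and -3.02 in PBS, and -1.29, -0.84 and -0.75 in 3day nt. Most 2208L samples were low but the models overlapped. No Tigit difference was called, at 1.22 (SE 0.62, adjusted p = 0.123) for 2151R against 2208L, 1.11 (SE 0.80, adjusted p = 0.317) for 2225L against 2208L, -0.11 (SE 0.88, adjusted p = 0.930) for 2225L against 2151R and -1.03 (SE 0.57, adjusted p = 0.194) for PBS against 3day nt. In 2151R against 2208L it was called on quantile-normalized values, at 1.48 (adjusted p = 0.0490), and without the muscle-high samples, at 1.87. In 2225L against 2208L it was called with macrophage (2.29, adjusted p = 0.0194) or pan-leukocyte (2.45, adjusted p = 0.0173) markers subtracted. With these subtractions 10302 and 10903 of the 17271 genes were called, beside 5687 without. With nothing subtracted, the difference was 0.14 without 2225L replicate 1 and 2.07 without replicate 2. Against 2151R, Tigit in 2225L was called higher with macrophage markers subtracted (2.26, adjusted p = 0.0229), where 13862 genes were called. Without 2208L replicate 4, PBS differed from 3day nt by -1.53 (adjusted p = 0.0195).

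Icos, a costimulatory receptor, followed the 2208L subsets as Pdcd1lg2 did. It stood at 1.54, 0.98, 0.13 and 0.69 in 2151R, 0.70 in T11, and -1.79 and -1.39 in 2225L. In 2208L it was -2.14 in ROSEN, -1.40, -1.11, 0.19 and -2.54 in PBS, and 2.0, 1.09 and 1.58 in 3day nt. All 3day nt samples lay above all PBS samples, and PBS was lower by -2.77 (SE 0.61, adjusted p = 0.0161, limma). The call was lost without replicate 6 (-2.55, adjusted p = 0.0617) or replicate 8 (-2.76, adjusted p = 0.0610). Without both it was -2.30 (adjusted p = 0.288).

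T cell markers moved with the Icos difference, with sample means of -1.98 to 0.15 in PBS and 0.07 to 0.70 in 3day nt, and 4 of 11 called lower in PBS (16.5% of all genes), led by Cd2 (-2.81) and Cd3d (-2.43). Foxp3, the regulatory T cell factor, was lower by -1.90. With T cell markers subtracted the Icos difference was -1.37 (adjusted p = 0.0613), and with dendritic markers -0.73 (adjusted p = 0.261). Between models, with all samples in the fit, no Icos difference was called, at 1.13 (SE 0.81, adjusted p = 0.266) for 2151R and -1.30 (SE 1.04, adjusted p = 0.366) for 2225L, each against 2208L, and -2.43 (SE 1.14, adjusted p = 0.0946) for 2225L against 2151R. As with Pdcd1lg2, the 2208L subset mattered: 2151R was higher than PBS alone by 2.05 (adjusted p = 0.0106), and differed from 3day nt alone by -0.72 (adjusted p = 0.124). For 2225L the difference was -3.15 from 3day nt alone (adjusted p = 0.00159) and -0.37 from PBS alone, the latter not called. Without the muscle-high samples, 2151R was called higher than 2208L (2.06, adjusted p = 0.0376) and 2225L lower than 2151R (-2.66, adjusted p = 0.0340). With only 2225L and 2151R in the fit their difference was also called (adjusted p = 0.00512).

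Tnfrsf9 stood at 0.36, 0.30, 0.07 and 0.97 in 2151R and 1.33 in T11, and its 2225L samples were far apart at 0.32 and -4.45. In 2208L it was -1.86 in ROSEN, -1.14, -1.91, -1.29 and 0.44 in PBS, and -1.65, -2.02 and -2.76 in 3day nt. Except for PBS replicate 5, every 2208L sample lay below every 2151R sample. Tnfrsf9 was higher in 2151R than in 2208L by 1.95 (SE 0.72, adjusted p = 0.0388, limma), a call lost without any one 2151R sample (1.77 to 2.07) or without 2208L replicate 1, 3, 6, 7 or 8 (1.77 to 1.93). Any of the 4 marker means subtracted also ended it, at 0.76 to 1.74. T cell and dendritic subtraction also lowered the number of genes called over the whole table. The Tnfrsf9 call was also lost on median-centred samples (1.89, adjusted p = 0.0516, limma). Across all its alternatives, not all listed here, the call was lost in 17 and kept in 12. Beside a mean of 0.43 in 2151R, Tnfrsf9 averaged -0.98 in PBS, which overlapped 2151R, and -2.14 in 3day nt. The other differences were not called, at -0.54 (SE 0.93, adjusted p = 0.696) for 2225L against 2208L, -2.49 (SE 1.02, adjusted p = 0.0589) for 2225L against 2151R and 1.17 (SE 0.57, adjusted p = 0.150) for PBS against 3day nt. The 2225L samples pulled in opposite directions. Without replicate 1, 2225L was called lower than 2208L (-2.92, adjusted p = 0.0166) and than 2151R (-4.87, adjusted p = 0.000604). Without replicate 2 these differences were 1.84 and -0.11, neither called. PBS was called higher than 3day nt with T cell (2.57) or dendritic (3.20) markers subtracted, where 8195 and 14684 of the 17271 genes were called. Tnfrsf9 overlaps Camta1 on the opposite strand, and Cd274 and Pdcd1lg2 each overlap an antisense gene. The values of these genes are uncertain where counting ignored strand, which was not stated. Icos overlaps Gm37039 on the same strand, which stranded counting would not separate.

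**Figure D3:**
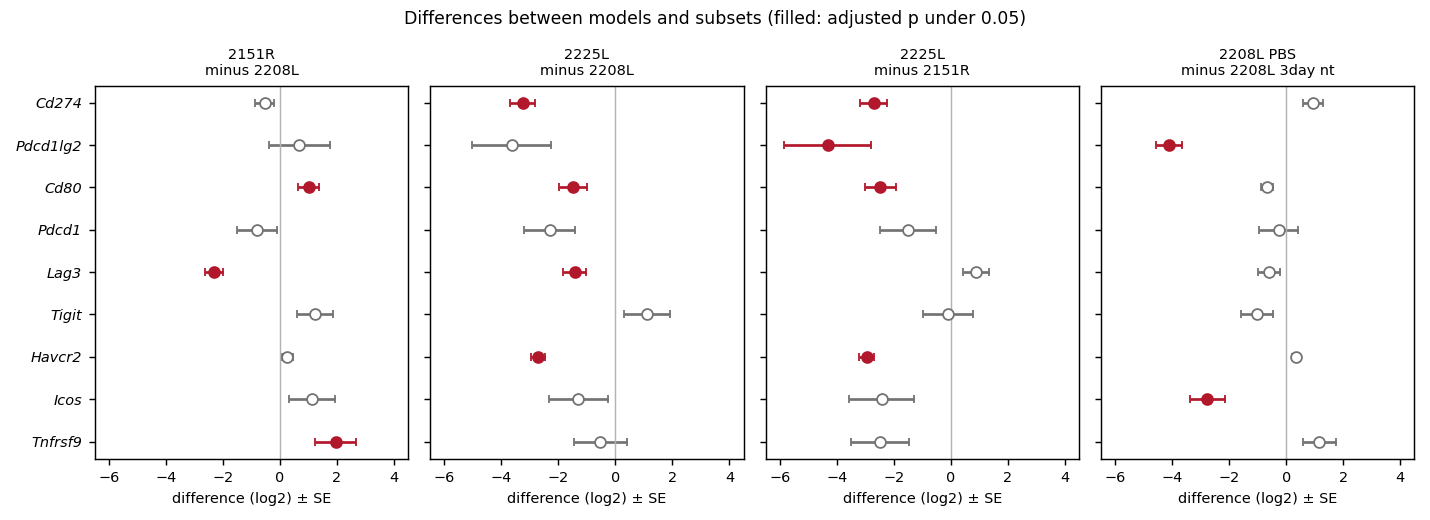
Difference in centred log2 expression (horizontal axis) with standard error bars for the 9 checkpoint genes (vertical axis) in the 4 comparisons, filled where called at an adjusted p below 0.05. The differences reach -4.32 for Pdcd1lg2 in 2225L against 2151R and -4.11 for the same gene in PBS against 3day nt.

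Counted together, 3 of the 9 genes were called between 2151R and 2208L, with Tnfrsf9 and Cd80 higher and Lag3 lower. Over all genes 48.8% were called there, 26.1% higher and 22.7% lower, and the 9 genes had a median difference of 0.68 beside 0.10 over all genes. Values did not overlap between the groups for 1 of the 9, against 38.8% of all genes. Between 2225L and 2208L, 4 were called, all lower (Cd274, Lag3, Havcr2, Cd80), where 32.9% of all genes were called, 15.6% higher and 17.3% lower, and the medians were -1.48 and -0.044. Groups did not overlap for 3 of the 9, against 31.7% of all genes. Between 2225L and 2151R, 4 were called, all lower (Cd274, Pdcd1lg2, Havcr2, Cd80), where 48.6% of all genes were called, 22.8% higher and 25.8% lower, and the medians were -2.47 and -0.10. Groups did not overlap for 6 of the 9, against 62.4% of all genes. Between PBS and 3day nt, 2 were called, both lower (Pdcd1lg2, Icos), where 34% of all genes were called, 17.4% higher and 16.5% lower, and the medians were -0.61 and -0.047. Groups did not overlap for 4 of the 9, against 44.8% of all genes. The share of checkpoint genes called was below that of all genes in every comparison except 2225L against 2208L. The shares without overlap were near the background or below it. The comparisons share samples, so their counts are not independent, and T11, with 1 sample, entered no test.

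Partners of these receptors and ligands were read from a list of 40 related genes, of which 32 were measured. Between 2151R and 2208L, 6 were higher and 10 lower, with a median of 0.17, where 48.8% of all genes were called. Cd28, the costimulator that binds Cd80, was higher by 2.78 and Timd4, a phosphatidylserine receptor, by 2.23, whereas Ceacam1, a Havcr2 ligand, was lower by -5.38 and Cd200 by -3.50. Between 2225L and 2208L, 3 were higher, led by Btla at 1.85 and Nectin2 at 1.36, and 6 lower, led by Nt5e (CD73) at -2.41 and Cd244a at -2.22, against 32.9% of all genes called. Between 2225L and 2151R, 7 were higher, led by Vtcn1 and Ceacam1, both at 4.21, and 11 lower, led by Cd28 at -2.89 and Cd200r1 at -2.53, against 48.6%. Between PBS and 3day nt, 4 were higher, led by Pvrig at 1.60 and Tnfrsf14 at 1.37, and 7 lower, led by Timd4 at -2.07 and Tnfrsf4 (OX40) at -2.0, against 34%. The share of partners called was thus near that of all genes, with calls in both directions. Of 8 tumour epithelial markers, 7 were lower and 1 higher in 2151R than in 2208L (median -6.06), where 48.8% of all genes were called. In 2225L all 8 were higher than in 2151R (median 6.42, against 48.6%), and 2 were higher than in 2208L (against 32.9%). Whether the partner differences followed these markers was not tested.

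**Figure D4:**
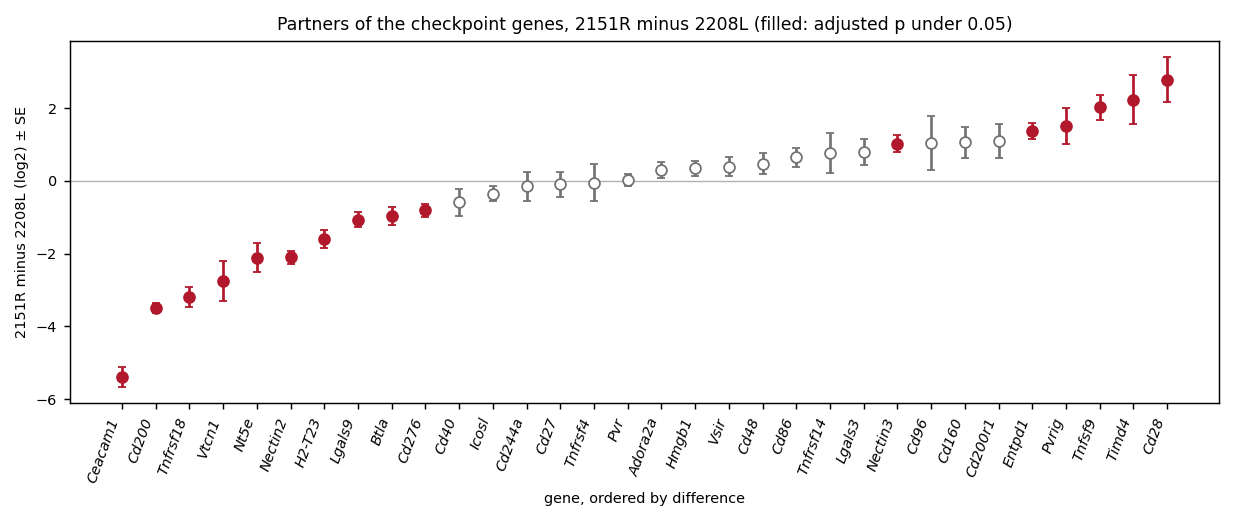
Difference in centred log2 expression between 2151R and 2208L (vertical axis), with standard error bars, for the 32 measured checkpoint partners in order of difference (horizontal axis), filled where the adjusted p was below 0.05. Called partners lie on both sides of 0, from -5.38 for Ceacam1 to 2.78 for Cd28.

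Of 21 interferon gamma and Cd274 regulators, all measured, 11 were lower and 2 higher (Myc 0.75, Rela 0.74) in 2225L than in 2208L, where 17.3% of all genes were lower and 15.6% higher. The interferon-induced chemokines Cxcl11 and Cxcl10 led, at -4.67 and -3.14, and Irf1 was lower by -1.59 (adjusted p = 0.000254, limma). In 2225L against 2151R, 8 were lower, led by Socs1 at -2.85 and Irf8 at -1.87, and 1, Stat3, was higher by 1.05, where 48.6% of all genes were called. In 2151R against 2208L, 8 were higher, led by Jak1 (1.13) and Irf8 (0.96), and 7 lower, led by Cxcl11 (-2.74) and Cxcl10 (-1.88), where 48.8% of all genes were called, and Cd274 was not. In PBS against 3day nt, 3 were higher, led by Hif1a and Jak1, both at 0.57, and 5 lower, led by Socs1 (-1.57) and Cxcl10 (-1.12), where 34% of all genes were called.

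Genes beside Cd274 and Pdcd1lg2 on chromosome 19 were read in each comparison, where the pair itself differed in pattern. In 2225L, Plgrkt, on the minus strand with its start just before that of Cd274, differed from 2208L by -0.07. Ric1, next after Pdcd1lg2, differed by -0.09, and neither was called. Further out, Insl6 was lower by -2.51 and Rcl1 higher by 1.33, while Jak2, the kinase of the interferon receptor, differed by 0.09 and was not called. Insl6 and Rcl1 were the only calls among the 8 measured neighbours, where 32.9% of all genes were called. In PBS against 3day nt, Plgrkt was lower by -0.56 and Ric1 higher by 0.69, both called, as were Insl6 (-1.12) and Ermp1 (0.67), beside -4.11 for Pdcd1lg2 and 0.93 for Cd274. Over all genes 34% were called there. In 2151R against 2208L, Jak2 (0.71), Uhrf2 (0.49) and Gldc (2.18) were called higher and the other 5 neighbours were not called, where 48.8% of all genes were called. In 2225L against 2151R, Rcl1 was called higher (1.08) and Insl6 (-3.15), Ermp1 (-0.87) and Gldc (-3.33) lower, where 48.6% of all genes were called.

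**Figure D5:**
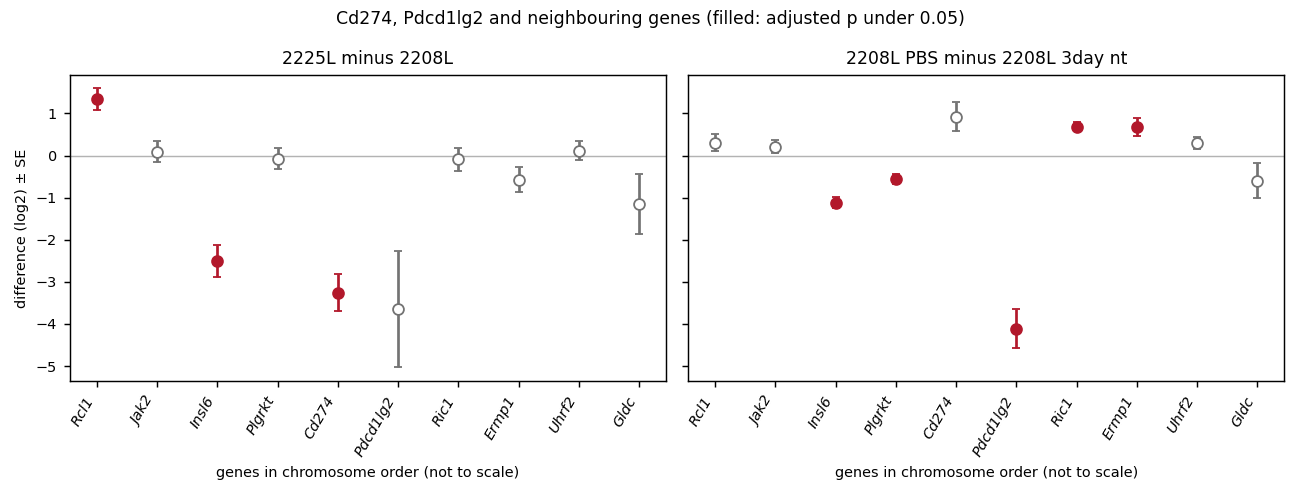
Difference in centred log2 expression (vertical axis) for measured genes around Cd274 and Pdcd1lg2 in chromosomal order (horizontal axis), with standard error bars, for 2225L minus 2208L and for PBS minus 3day nt, filled where called. Ric1 and Plgrkt lie near 0 in the first panel, beside -3.25 for Cd274 and -3.64 for Pdcd1lg2, and in the second panel Pdcd1lg2 stands alone at -4.11.

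Over the 15 samples, the genes with the pattern most like Cd274 were Cd300lf (Pearson r = 0.966), Gpr35 (0.958) and Trem1 (0.957). Those most like Pdcd1 were Hebp1 (0.892), Cstad (0.877) and Pias4 (0.875). They were picked as the highest among all genes, and the points share library series and models, so these values are descriptions.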

How the data were processed

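Poly(A) RNA of 15 mammary tumours was sequenced from TruSeq libraries, per the labels' protocols, and the submitters' processing notes name STAR, Salmon and mm10, without versions. The deposited table holds the authors' log2 expression per gene, centred on each gene. Read counts are not part of it, so depth per sample is unknown and no counting interval can be given. Values were used as deposited. Differences were fitted with limma 3.58.1 in R 4.3.3 (mean per group, eBayes, Benjamini-Hochberg over all genes, called at an adjusted p below 0.05). Models were compared in 1 fit of all 15 samples, and PBS with 3day nt in a fit of those 7. Code was tested on simulated data. The genes and lists were chosen with earlier results of these data known. Named were all listed genes, the 2 largest called differences per other list and direction, the Cd274 neighbours, Trp53, and the 3 genes most like Cd274 and Pdcd1. Irf1 and the Lag3 neighbours were named outside this rule. Alternatives were median centring, quantile normalization, variance settings, filters, fewer groups or subsets, marker means subtracted, and each sample left out. A further alternative was a covariate for samples titled ROSEN, which does not adjust for the ranges of library numbers. Marker subtraction takes a sample's mean over a marker list from every gene.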

Additional observations from a re-analysis of the deposited data

Results flagged for a closer look

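Lag3 in 2208L replicate 5, a PBS sample, stood at 0.54, apart from the other 2208L samples at 1.67 to 2.63 and from the other PBS samples at 1.67 to 1.86. Cd80 in 2208L replicate 1, titled ROSEN, stood at -2.03, apart from -0.47 to 0.78 in the other 2208L samples. Among marker means, 2151R replicate 3 stood at 7.99 for skeletal muscle against -3.04 to -2.69 in its group, and at -1.10 for B cells against -0.34 to -0.30. Near Cd274, 2208L replicate 5 stood at -0.66 for Rcl1 against -0.058 to -0.025 in the other PBS samples, and at 0.067 for Ermp1 against 0.66 to 0.69. Each was a single sample far from the rest of its group. Of 93 groups of values examined, 7 held one, where chance gives about 1 in 20.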

How the results depend on the processing

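Of the alternative values of single checkpoint genes, 691 kept direction and call, 76 lost the call, 42 gained it and 37 changed sign. Checkpoint genes called, 2151R against 2208L (3), became 5 with PBS samples only, 1 with T cell, pan-leukocyte or dendritic markers subtracted, and 1 to 2 without single samples. For 2225L against 2208L (4) they became 0 with dendritic markers subtracted, and 3 to 5 without single samples. For 2225L against 2151R (4) they became 2 with T cell, macrophage or pan-leukocyte markers subtracted, 1 with dendritic, and 3 to 4 without single samples. For PBS against 3day nt (2) they became 4 with quantile normalization, T cell or pan-leukocyte subtraction, 7 with dendritic, 0 without muscle-high samples, and 1 to 3 without single samples. All genes called in 2151R against 2208L (8434) became 5151 with a difference of at least 1 required, 3167 with T cell and 2320 with dendritic subtraction. In 2225L against 2208L (5687) they became 1005 with T cell, 10302 with macrophage, 10903 with pan-leukocyte and 1499 with dendritic subtraction. In 2225L against 2151R (8398) they became 2569 with T cell, 13862 with macrophage and 3608 with dendritic subtraction. In PBS against 3day nt (5864) they became 2208 with a difference of at least 1, 98 without muscle-high samples, 3005 with macrophage and 14684 with dendritic subtraction, and 2379 to 6800 without single samples. Signs changed in 2151R against 2208L for Pdcd1lg2 (-2.04 with 3day nt only, -0.51 with macrophage subtraction), Havcr2 (-0.34 T cell, -0.94 macrophage), Icos (-0.72 with 3day nt only, -0.062 macrophage) and Cd80 (-0.19 macrophage). In 2225L against 2208L they changed for Icos (0.044 pan-leukocyte) and Tnfrsf9 (0.20 with the ROSEN covariate, 0.080 with 3day nt only, 0.64 macrophage, 0.80 pan-leukocyte, 0.65 dendritic, -2.92 to 1.84 without single samples). In 2225L against 2151R they changed for Pdcd1 (0.86 macrophage, 0.055 pan-leukocyte, -3.29 to 0.27 without single samples) and Tigit (0.13 quantile, 0.93 covariate, 0.33 T cell, 2.26 macrophage, 1.45 pan-leukocyte, 1.28 dendritic, -1.08 to 0.86 without single samples). In PBS against 3day nt they changed for Pdcd1 (1.14 T cell, 0.17 pan-leukocyte, 1.77 dendritic, -0.70 to 0.22 without single samples), Lag3 (0.80 T cell, 1.43 dendritic), Tigit (0.38 T cell, 1.01 dendritic) and Cd80 (0.75 T cell, 1.38 dendritic). The cause was not tested. The dendritic subtraction was chosen after seeing the data. No paired analysis was possible because the groups compared share no number in their titles.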

Other observations

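In 2151R against 2208L, where 48.8% of all genes were called, 3 of 6 measured cytotoxic and NK markers were higher, with the perforin gene Prf1 at 3.47 and the NK receptor gene Ncr1 at 2.22. Of 10 exhaustion and activation regulators measured, 5 were called higher and 2 lower in 2151R. Eomes, a factor of effector and exhausted T cells, was higher by 2.46 and Nfatc1 by 1.75, while Nr4a1 was lower by -2.51 and Batf by -0.90. In 2225L against 2208L, Lck, a kinase of the T cell receptor, was the single call among 11 measured T cell markers, higher by 3.05. The T cell markers had a median difference of 0.11, and their means in the 2225L samples were -1.54 and 0.97. Of 5 B cell markers measured, 2 were called, the B cell receptor genes Cd79a (2.38) and Cd79b (2.37), both higher. In the same comparison, where 32.9% of all genes were called, 5 of 6 pan-leukocyte markers were lower, led by Ptprc at -2.13 and Cd53 at -1.88. In PBS against 3day nt, the cytotoxic genes Nkg7 (-2.59) and Gzma (-2.46) were lower, as 2 of 6 measured, where 34% of all genes were called.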
